A study of Mus musculus with 12 samples.

Results

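The small intestines of mice fasted for 24 h were compared with those of mice fasted for 12 h on 6 of the 12 arrays of a fasting series, the 3 arrays labelled 24 h fasted against the 3 labelled 12 h fasted. All mice were male FVB mice, 6 weeks old, that were kept in metabolic cages once chow was removed, were warmed by a lamp from 24 h on and were killed at the same hour of the day. The label decided membership and no measured value entered the choice. In the Cy3 channel every array measured a different pair of mice, pooled before labelling, which gives n = 3 pools in each group. A probe lacking a value on some array has a lower n. The Cy5 channel of every array held reference RNA from a pool of 6 fed mice, and the dyes were not swapped. A log ratio below is log2(Cy3/Cy5), the signal of the fasted pool over that of the fed reference, and a difference is the mean log ratio at 24 h minus that at 12 h with its standard error (SE). The RNA came from the full thickness of the intestine, so fewer cells of a type and less RNA per cell cannot be told apart. As the dyes were not swapped, a log ratio above or below 0 also holds the probe's dye bias. A level above or below the reference is therefore one of signal and not a measured difference from fed mice. Between time points the bias cancels only as far as it was the same on both sets of arrays, which was not tested.

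Fasting moves the intestine from dietary fuel to fuel from body stores. As glycogen runs out, fatty acids released from adipose tissue become the main fuel. Enterocytes, which normally burn glutamine, can oxidize fatty acids, make ketone bodies, glucose and urea-cycle intermediates, and pass triacylglycerol on in lipoproteins. Glucocorticoids rise with food deprivation and act on many intestinal genes, among them kinases, metallothioneins and genes of the circadian clock.

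Genes that were higher after 24 h than after 12 h included the metallothionein Mt1, the aldo-keto reductase Akr1c14, Dgat2, which makes triacylglycerol, the glutamate dehydrogenase Glud1, the glucocorticoid-regulated kinase Sgk1 and the clock genes Ciart and Bhlhe40. Ciart and Bhlhe40 passed the test in the log ratio but not in Cy3 alone. Lower after 24 h were the acyl-CoA thioesterase Acot1, Fdps of cholesterol synthesis, the asparagine synthetase Asns, the calcium-binding protein S100g, the zinc transporter Slc39a4 and the class II antigen chain H2-Ab1. Of 20281 probes, limma called 597 at a Benjamini-Hochberg adjusted p under 0.05, which is 2.94% of the probes, and 250 of them were higher and 347 lower at 24 h. The median fold of the called probes was 1.85, within a range of 1.44 to 10.1, and 197 of them differed at least 2-fold, 55 higher and 142 lower. In 596 of the 597 the values of the time points did not overlap, as in 4795 of all probes (23.6%). An unadjusted p under 0.05 was reached by 4249 probes (21.0%).

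The split into higher and lower probes moved with the scaling. It was 114 higher and 330 lower with loess within arrays, 23 and 179 with median centring, and 66 and 183 with the log ratio of the scanning software. Because the fit took its spread from all 12 arrays, the count also depended on the arrays of the other time points, and with only the 6 arrays of 12 h and 24 h in the fit 24 probes were called, 6 higher and 18 lower. Single libraries moved it too. Without replicate 1 of 12 h the count was 1493, and without replicates 1, 2 or 3 of 24 h it was 329, 166 and 194.

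The Cy5 signal was examined as a control, since the reference RNA was the same on all 6 arrays. Its level differed between the 24 h and the 12 h arrays at 2920 probes (14.4% of 20281), 1262 higher and 1658 lower, whereas the Cy3 signal of the fasted pools differed at 1667 probes (8.22%), 883 higher and 784 lower. This order held for the fit over 12 arrays and turned with only the 6 arrays in the fit, where 61 probes were called in Cy5 and 426 in Cy3, and without background correction, at 1440 and 1507. The spread of the change over probes was an SD of 0.446 in Cy5, 0.443 in Cy3 and 0.387 in the log ratio. Across the 20281 probes the changes of both channels correlated at 0.621, as a description, since both were read from the same spots. Of the 597 called probes, 503 (84.3%) moved in Cy3 in the direction of the log ratio, but in 356 (59.6%) the Cy5 change was larger than the Cy3 change, and 265 (44.4%) were also called in Cy5. A subset of 120 probes (0.592% of all), 57 higher and 63 lower, was called in the log ratio and in Cy3 in the same direction. The genes described first below, from Akr1c14 to Bcl2l1, were taken from its probes without overlap between the time points. This subset also moved with the libraries, to 343 probes without replicate 1 and 76 without replicate 3 of 12 h, and to 9, 33 and 18 without replicates 1, 2 and 3 of 24 h.

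**Figure D1:**
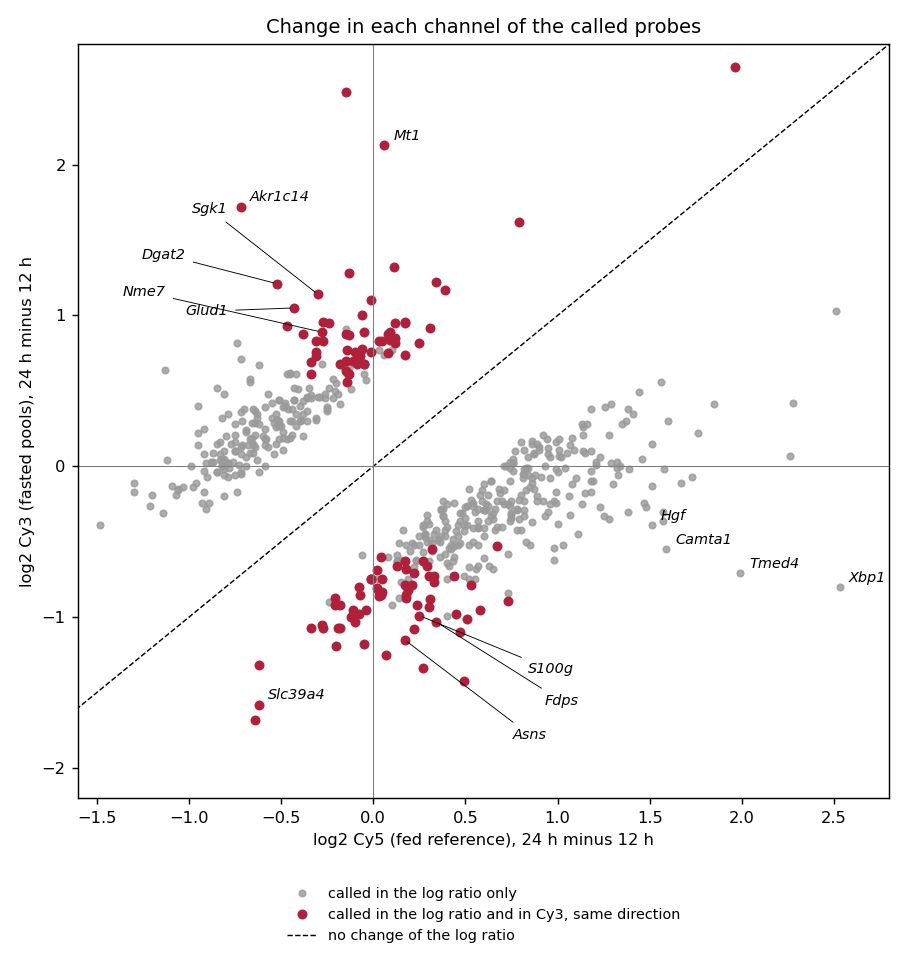
The change of the log2 Cy5 reference signal (x axis) and of the log2 Cy3 signal of the fasted pools (y axis) between 24 h and 12 h for the 597 called probes, with the 120 probes also called in Cy3 in red and the others in grey; the dashed line marks an unchanged log ratio. Xbp1 and Tmed4 lie far to the right, with a Cy5 change of 2.53 and 1.99, whereas Mt1 changed by 2.13 in Cy3 and by 0.06 in Cy5.

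The 3 arrays of 24 h resembled each other more than those of 12 h did. Their log ratios correlated at 0.596 to 0.647, those of the 12 h arrays at 0.185 to 0.543 and arrays of different time points at 0.231 to 0.538. Replicate 1 of 12 h had 5.47% of its spots marked as outliers (1115 spots) against 0.319% to 1.29% on the other 5 arrays, and a gene given below with fewer than 3 values most often lacks this array. Replicate 3 of 12 h had the lowest weight of the 12 arrays, 0.16, and its Cy5 signal correlated at 0.8 to 0.887 with the other 5 arrays, which correlated at 0.917 to 0.967 among themselves. Its log ratio was the highest of the 12 h values for many genes that were lower at 24 h, among them Slc44a4, Fdps and Mmp7 below. It was the lowest 12 h value for others that were higher at 24 h, among them Efl1 (-1.91), Def6 (-1.47) and Rbbp6 (-1.29). For Akr1c14, Sgk1 and Dgat2 it was not the lowest. The median Cy3 signal was 3.36 to 4.53 times the background on the 6 arrays and the median Cy5 signal 1.93 to 2.11 times, which limits the precision along with the number of arrays. The p-values rest on the spread between arrays of the same time point, taken over all 12 arrays. In Cy3 and the log ratio it joins the spread between pools of 2 mice with that of labelling and hybridization. These cannot be told apart, as each pool was on a single array. In Cy5 it holds no spread between mice. The fit took this spread as equal on all arrays. The array weights were unequal, at 3.69, 2.57 and 0.348 for the fed arrays and 0.364, 2.66 and 0.16 for the 12 h arrays. The fed and 72 h arrays also had a median Cy5 signal of 124 to 142, against 393 to 627 on the 12 h and 24 h arrays. The p-values may thus be too small where the 12 h arrays vary more.

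The largest rise among probes with a gene symbol that were called in both ways was that of Akr1c14, an aldo-keto reductase that acts on steroids and other carbonyl compounds. Its log ratio was -3.23, -2.49 and -2.90 on the 12 h arrays and -0.81, -0.26 and -0.23 on the 24 h arrays. The groups lay far apart, with a difference of 2.44 ± 0.26 (SE, 5.43-fold, adjusted p = 0.00046 by limma). The Cy3 level alone rose by 1.72 (adjusted p = 0.0092 by limma), and the Cy5 level of the reference also changed, by -0.72 (adjusted p = 0.037). Akr1c14 was called under all 21 alternatives of the processing.

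Mt1, which encodes a cysteine-rich protein that binds zinc and copper, was at -0.11 and 0.18 on the 12 h arrays with a value and at 2.02, 2.24 and 2.04 on the 24 h arrays. The signal thus moved from near that of the fed reference to well above it on every 24 h array. The difference was 2.07 ± 0.32 (SE, 4.20-fold, adjusted p = 0.0052 by limma), and the Cy3 level rose by 2.13 while the Cy5 level moved by 0.06. Mt1 was called under 20 of the 21 alternatives.

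Sgk1, a kinase induced by glucocorticoids that raises sodium uptake in epithelia, was at -0.38, -0.53 and -0.36 after 12 h and at 1.00, 1.09 and 0.96 after 24 h. Its replicates were close together in both groups, and the difference was 1.44 ± 0.17 (SE, adjusted p = 0.00083 by limma). It was called under all 21 alternatives, as was Nme7, a nucleoside diphosphate kinase family member, at -1.02, -1.08 and -1.01 after 12 h and 0.11, 0.25 and 0.06 after 24 h. The difference of Nme7 was 1.18 ± 0.15 (SE, adjusted p = 0.0018 by limma).

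Dgat2, which adds the last acyl chain to triacylglycerol, was at -1.53, -1.01 and -0.88 after 12 h and at 0.24, 0.62 and 0.92 after 24 h. All 24 h values lay above all 12 h values, as the choice of genes required, and the difference was 1.74 ± 0.23 (SE, 3.33-fold, adjusted p = 0.0051 by limma). Glud1, the mitochondrial enzyme that releases ammonia from glutamate, was at -0.66 and -1.21 on 2 arrays of 12 h and at 0.48, 0.72 and 0.46 after 24 h. Its difference was 1.48 ± 0.21 (SE, adjusted p = 0.0034 by limma), and the Cy3 levels of Dgat2 and Glud1 rose by 1.21 and 1.05.

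Further rises were called in both ways. Efl1, a factor of ribosome maturation, rose by 1.4 ± 0.30, Fam102a by 1.21 ± 0.25, Zup1, a deubiquitinase, by 1.07 ± 0.16, and Pole2, a subunit of DNA polymerase epsilon, by 1.04 ± 0.21 on the log2 scale. Rbbp6, a ubiquitin ligase that binds the retinoblastoma protein, rose by 1.09 ± 0.25 from a Cy3 signal not well above background on 2 of the 12 h arrays. Its other probe was at -0.46 ± 0.21 (adjusted p = 0.23 by limma). The probe of Def6, a guanine nucleotide exchange factor of lymphocytes, was not well above background in Cy3 on any 12 h array, and its Cy3 signal was at least 1.66-fold higher at 24 h (adjusted p = 0.024 for the log ratio by limma). For that bound each dim array took the lowest signal of any probe well above background on it, or the signal of Def6 where higher, after loess and Aquantile normalization. As the bound sets Def6 against the signal of another probe, dye bias need not cancel in it. In Cy5 the called probes of Rbbp6 and Def6 were well above background on only 2 of the 12 h arrays and 1 of the 24 h arrays.

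**Figure D2:**
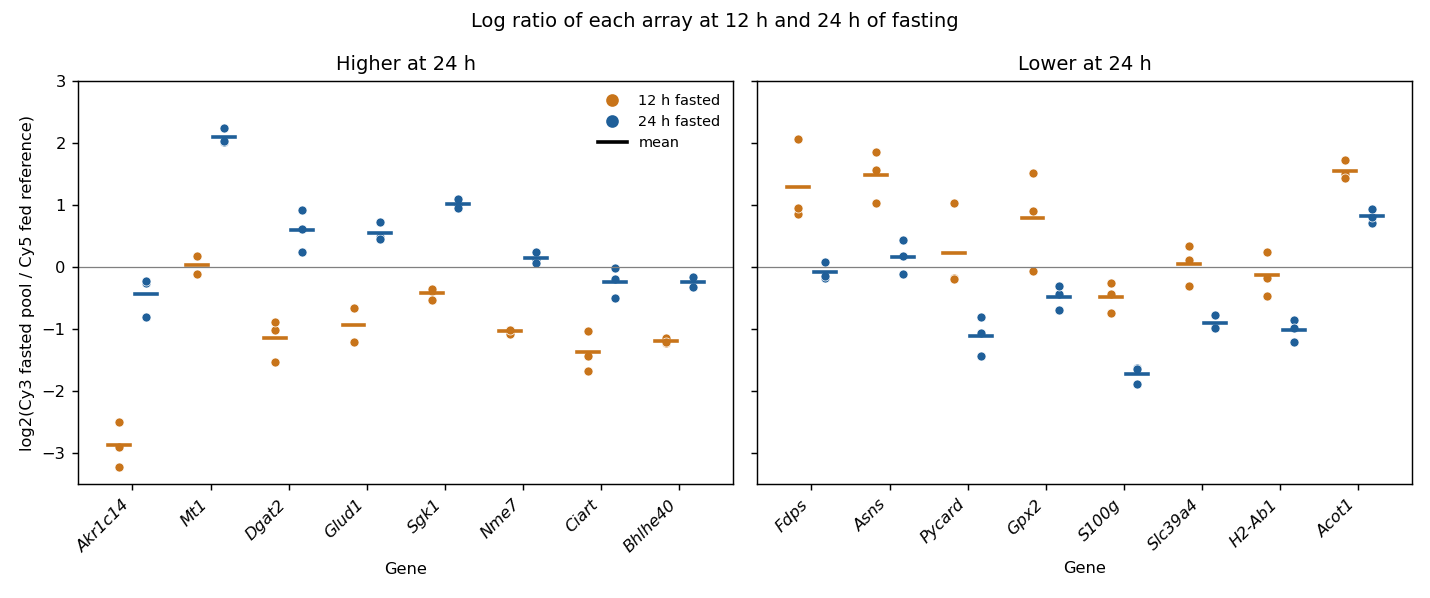
The log2 ratio of the fasted pool over the fed reference (y axis) on each array for 16 called genes (x axis), with the 12 h arrays in orange, the 24 h arrays in blue and bars at the group means. In the 8 genes on the left every 24 h array lies above every 12 h array, from Akr1c14 (difference 2.44) to Bhlhe40 (0.95), and in the 8 genes on the right every 24 h array lies below, from Fdps (-1.36) to Acot1 (-0.73). Ciart, Bhlhe40 and Gpx2 were called in the log ratio but not in Cy3.

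Among the falls, Asns, which makes asparagine from aspartate and glutamine and is induced by amino-acid shortage, was at 1.57, 1.04 and 1.86 after 12 h and at -0.11, 0.43 and 0.18 after 24 h. The signal of the fasted pools was thus well above that of the reference at 12 h and near it at 24 h. The difference was -1.32 ± 0.22 (SE, 2.50-fold lower, adjusted p = 0.0065 by limma), the Cy3 level fell by 1.15, and Asns was called under 19 of the 21 alternatives.

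S100g, the calbindin-D9k that carries calcium through the enterocyte, was at -0.44, -0.74 and -0.25 after 12 h and at -1.63, -1.64 and -1.89 after 24 h. The groups did not overlap, as the choice of genes required, and the difference was -1.24 ± 0.20 (SE, adjusted p = 0.0061 by limma). Slc44a4, a transporter of choline and thiamine compounds, was at 1.87, 1.36 and 2.61 after 12 h and at 0.41, 0.49 and 0.38 after 24 h, a difference of -1.52 ± 0.31 (adjusted p = 0.021 by limma). Stom, the membrane protein stomatin, was at 1.87, 1.17 and 1.85 after 12 h and at 0.32, 0.56 and 0.10 after 24 h, a difference of -1.30 ± 0.25 (adjusted p = 0.014 by limma). The signal of both stayed above that of the reference on all 6 arrays.

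Pycard, the inflammasome adaptor ASC, differed by -1.32 ± 0.29 (adjusted p = 0.025 by limma), with a 12 h value of 1.04 on replicate 3 and of -0.18 and -0.20 on the others. Rab3d, a small GTPase of secretory vesicles, differed by -1.62 ± 0.29 and Armh3 by -1.6 ± 0.26. A second probe of Armh3 was at -0.13 ± 0.16 (adjusted p = 0.68 by limma). Btf3, a factor that binds nascent chains at the ribosome, differed by -1.44 ± 0.32 and the neuronal membrane protein Gpm6a by -1.32 ± 0.26. A probe of Bcl2l1, the inhibitor of apoptosis Bcl-x, differed by -1.53 ± 0.36 (adjusted p = 0.037 by limma), while its other probes were at -0.09 ± 0.29 and 0.61 ± 0.20 (adjusted p = 0.89 and 0.11), so that no direction can be given for this gene.

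Several of the largest differences rested on a single 12 h array or on the reference. Xbp1, a transcription factor of the unfolded-protein response, had a 12 h value on replicate 3 only, 3.33, against -0.10, 0.16 and -0.07 after 24 h. Its difference of -3.33 ± 0.66 was the largest of all called probes with a gene symbol, but the Cy3 level differed by -0.80 (adjusted p = 0.43 by limma) and the Cy5 level by 2.53. Tmed4, a cargo receptor of the early secretory pathway, Alad, an enzyme of heme synthesis, and the intestinal factor Klf5 likewise had a 12 h value on that replicate only. Their differences were -2.70, -2.19 and -1.86, with -0.71, 0.07 and 0.42 in Cy3, so the Cy3 level of Alad and Klf5 was not lower at 24 h. Camta1 (-2.14) and Hgf (-1.90) had 3 values in each group, with a Cy3 change of -0.55 and -0.39 against a Cy5 change of 1.59 and 1.51, and the other probe of Camta1 was at -0.21 ± 0.17 (adjusted p = 0.52 by limma). Among the rises, Utp20, a factor of ribosome assembly, differed by 1.76 ± 0.28 with a Cy3 change of 0.64 and a Cy5 change of -1.13.

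The genes were also read by pathway, with the brightest probe of each gene. Over the 8023 genes with a symbol 2.78% were called, 1.58% higher and 1.2% lower, the median difference was 0.025 and 52.9% were higher without a threshold. In Cy3 alone 3.73% of these genes were called higher and 4.35% lower, around a median of -0.075. The 20 pathway lists together held 20 called genes, 11 higher and 9 lower, and each list is described by its counts and its median beside these shares, with no test of the list. A gene counts as called by its brightest probe, and calls of its other probes are named beside the list. The called genes held under unequal numbers of the 21 alternatives. Dgat2 was called under 20, Glud1 under 19, Fdps and Acot1 under 12, Ciart and H2-Ab1 under 11, Bhlhe40 under 10, Slc39a4 under 9, Irf8 under 7, Gclm under 6 and Gpx2 under 3. Probes of the brightest eighth had a median difference of -0.11, against 0.01 to 0.06 in the other eighths, which touches the lists of abundant transcripts below.

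Fatty-acid oxidation and ketone-body synthesis leaned downward from 12 h to 24 h. Of 29 genes, 2 were called lower, Acot1 among them, and 0 higher by limma, and at an unadjusted p under 0.05 there were 11 lower and 0 higher, against 9.62% lower and 12.8% higher of the 8023 genes. Without a threshold 21 were lower and 8 higher. The median difference was -0.28 in the log ratio and -0.37 in Cy3, and over the processing alternatives of the log ratio it stayed between -0.41 and -0.17. Acot1, which splits long-chain acyl-CoA, was at 1.5, 1.43 and 1.72 after 12 h and at 0.71, 0.81 and 0.94 after 24 h, a difference of -0.73 ± 0.16 (SE, adjusted p = 0.024 by limma). Its signal was above that of the fed reference on all 6 arrays. The log ratio was lower on every 24 h array, and the Cy3 level fell by 1.07.

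Other members of the pathway did not pass the test. The bright members Acadl, Acaa1a and Ppargc1a were at -0.04, 0.16 and -0.68 (adjusted p = 0.94, 0.67 and 0.22 by limma). Hadha, Acadvl and Slc25a20 were named after their values were seen. Hadha, a subunit of the mitochondrial trifunctional protein, was at -1.06 ± 0.27 (adjusted p = 0.054 by limma) with 2 values at 12 h. The very-long-chain dehydrogenase Acadvl was at -1.19 (adjusted p = 0.072) and the carnitine-acylcarnitine carrier Slc25a20 at -0.70 (adjusted p = 0.061). Ppara, the receptor that switches on fatty-acid oxidation, was at 1.09, 0.20 and 0.80 after 12 h and at 0.45, 0.82 and 0.46 after 24 h, a difference of -0.12 ± 0.25 (adjusted p = 0.82 by limma). In Cy3 alone Ppara was higher by 1.12 (adjusted p = 0.049), with a Cy5 change of 1.23. Pdk4, the kinase that shuts off pyruvate oxidation, was at 0.25 ± 0.18 (adjusted p = 0.43) and above the reference on all 6 arrays, at 0.98 to 1.56. Ucp2 was called higher in Cy3, by 1.33, with a log-ratio difference of 0.11 ± 0.36.

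Lipid absorption, synthesis and storage had a median of 0.08 over 24 genes. Dgat2 was called higher and none lower. Abca1, the exporter that loads cholesterol onto apolipoprotein A-I, Gpam, the first enzyme of glycerolipid synthesis, and the elongase Elovl6 were at 0.94, 0.82 and 0.81 (adjusted p = 0.061, 0.073 and 0.063 by limma). The apolipoproteins Apoa4 and Apoa1 were at 0.27 ± 0.28 and -1.26 ± 0.51 (adjusted p = 0.62 and 0.18), and the chylomicron assembly protein Mttp at 0.29 ± 0.18 (adjusted p = 0.38).

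Cholesterol synthesis had 1 of 23 genes called lower and 0 higher. At an unadjusted p under 0.05 there were 7 lower and 0 higher, and in Cy3 alone 4 were called lower and 0 higher, with a median of -0.38 in Cy3 and of -0.07 in the log ratio. Fdps, which makes farnesyl diphosphate, was at 0.85, 0.96 and 2.06 after 12 h and at -0.17, 0.09 and -0.14 after 24 h. Its signal moved from above that of the reference to near it, a difference of -1.36 ± 0.28 (SE, adjusted p = 0.019 by limma) with a Cy3 change of -1.03. The next enzyme of the pathway, Fdft1, was at -1.18 ± 0.34 (adjusted p = 0.073 by limma), with a Cy3 change of -0.86. The sterol sensor Insig1 was at 0.18 ± 0.21 (adjusted p = 0.66). The probes of squalene epoxidase, Sqle, disagreed. The brightest was at -0.66 ± 0.22 (adjusted p = 0.11), another was called higher at 0.71 ± 0.16 (adjusted p = 0.03), and the 2 others were at -0.03 and 0.07, so no direction can be given for Sqle. The dimmer probe of Cyp51, the lanosterol demethylase, was called lower at -0.77 ± 0.15 (adjusted p = 0.017), and its brighter probe was at -0.56 ± 0.24 (adjusted p = 0.2).

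Amino-acid metabolism had 27 genes with a probe, of which Glud1 and Gclm were called higher and Asns lower, around a median of -0.08. Gclm, the regulatory subunit of glutathione synthesis, was at 0.83 ± 0.21 (adjusted p = 0.047 by limma), with a Cy3 change of 0.31, and its other probe was at 0.38. Psat1 of serine synthesis and Ass1 of arginine synthesis were at -0.53 and -0.47 (adjusted p = 0.12 and 0.21), and the ornithine decarboxylase Odc1 at 0.62 ± 0.24 (adjusted p = 0.16). Glul, the glutamine synthetase, was at 0.33, 0.39 and 0.15 after 12 h and at 0.24, -0.01 and 0.39 after 24 h, so the groups overlapped and the difference was -0.08 ± 0.19 (adjusted p = 0.84 by limma), with 0.35 ± 0.27 for its other probe. The ornithine aminotransferase Oat was at 0.29 ± 0.24 (adjusted p = 0.52).

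The promoter of Asns is shown because amino-acid shortage acts on this gene through a short element close to its start. The capitals mark TGATGAAAC, searched on both strands, in the 250 bases before the start in RefSeq (GRCm38.p6, chr6:7693210-7693459, minus strand).
Asns: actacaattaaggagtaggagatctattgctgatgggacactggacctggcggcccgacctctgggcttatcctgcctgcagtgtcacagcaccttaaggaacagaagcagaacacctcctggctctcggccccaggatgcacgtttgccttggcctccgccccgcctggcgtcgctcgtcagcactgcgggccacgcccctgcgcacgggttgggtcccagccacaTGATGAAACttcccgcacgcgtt
The match lies 23 to 15 bases before the start, and 70 of the 32851 promoter windows of this length (0.213%) hold these letters.

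Of the circadian clock list, 11 genes had a probe, 2 were called higher and 0 lower, and the median was 0.27. Ciart, a repressor of the CLOCK-BMAL1 activator, was at -1.03, -1.43 and -1.67 after 12 h and at -0.50, -0.01 and -0.19 after 24 h. The difference was 1.14 ± 0.24 (SE, adjusted p = 0.024 by limma), with a Cy3 change of 0.84 (adjusted p = 0.066). Bhlhe40, another repressor of the same activator, was at -1.22, -1.15 and -1.21 after 12 h and at -0.16 and -0.32 on the 24 h arrays with a value. Its difference was 0.95 ± 0.20 (adjusted p = 0.024 by limma), with a Cy3 change of 0.29 and a Cy5 change of -0.66. The activator gene Arntl went the other way without passing the test, at -0.52 (adjusted p = 0.085 by limma), while Cry2 and Tef were at 0.56 and 0.62 (adjusted p = 0.11 and 0.19). The list's median fell to 0.06 with array weights and to 0.14 without replicate 3 of 12 h.

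The promoter of Ciart is shown because CLOCK-BMAL1 binds the E-box CACGTG, whose matches on either strand are in capitals in the 250 bases before the start in RefSeq (GRCm38.p6, chr3:95882229-95882478, minus strand).
Ciart: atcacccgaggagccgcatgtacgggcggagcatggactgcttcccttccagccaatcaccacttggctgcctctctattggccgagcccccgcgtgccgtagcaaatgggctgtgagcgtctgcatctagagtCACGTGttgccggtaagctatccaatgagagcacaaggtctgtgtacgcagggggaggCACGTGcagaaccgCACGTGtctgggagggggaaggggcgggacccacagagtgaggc
The window holds 3 matches. At least 1 match stands in 6.02% of the 32851 windows and 3 or more in 20 of them (0.0609%), and 3 of the 36 named called genes with such a window hold at least 1. A match is a description of the letters and not a measured binding site.

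The immediate-early, stress and glucocorticoid list had 1 of 28 genes called higher, Sgk1, and 0 lower, with a median of 0.20 in the log ratio and of -0.03 in Cy3. At an unadjusted p under 0.05 there were 5 higher and 1 lower. Among other targets of the glucocorticoid receptor in the list, Fkbp5 was at 0.94 and Tsc22d3 at 0.83 (adjusted p = 0.072 and 0.093 by limma). Both were named after their values were seen. The bright list members Zfp36 and Cebpb were at 0.18 and 0.25 (adjusted p = 0.75 and 0.57), with Cy3 changes of -0.12 and -0.02. Ddit4, an inhibitor of mTORC1, was at 0.79 (adjusted p = 0.10), with a Cy3 change of -0.04. Fos was at 0.62 ± 0.25 with its brightest probe and at 0.07 with the other, and Jund at 0.03 ± 0.22. A dimmer probe of Btg2, an antiproliferative early gene, was called lower at -0.74 ± 0.19 (adjusted p = 0.047), against -0.21 ± 0.40 for its brightest probe.

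**Figure D3:**
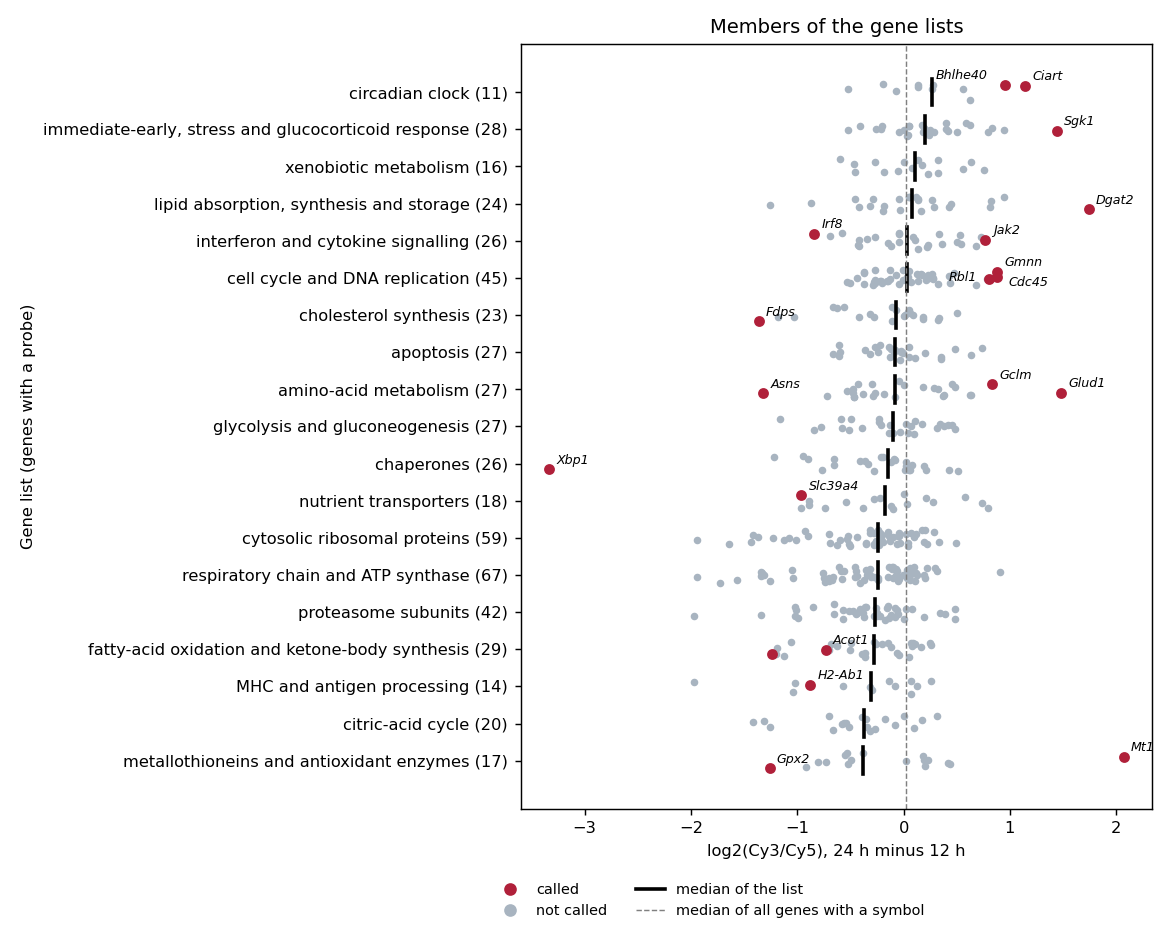
The difference in log2(Cy3/Cy5) between 24 h and 12 h (x axis) of each gene of the pathway lists with 10 or more genes (y axis, number of genes in brackets), with called genes in red, others in grey, black bars at the list medians and a dashed line at the median of all genes with a symbol. Medians run from -0.38 for metallothioneins and antioxidant enzymes to 0.27 for the clock, and Mt1 at 2.07 and Xbp1 at -3.33 lie farthest out.

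Listed genes of the respiratory chain, citric-acid cycle, ribosome and proteasome lay mostly below 0, with 0 called by their brightest probes. For the respiratory chain and ATP synthase 48 of 67 genes were lower, with a median of -0.24, 15 lower and 1 higher at an unadjusted p under 0.05, and the subunits Cox4i1 and Cox8a at -0.46 ± 0.16 and -0.44 ± 0.16 (adjusted p = 0.13 and 0.14) in the log ratio and 0.47 and -0.53 in Cy3. Dimmer probes of the respiratory-chain subunits Ndufs1 and Ndufc1 were called, at -1.04 and 0.80 (adjusted p = 0.025 and 0.041 by limma), against -0.24 and 0.04 for their brighter probes. Of the cytosolic ribosomal proteins 46 of 59 were lower, with a median of -0.24 and 19 lower and 1 higher at that threshold. Of the probes of Rpl7l1, 2 dimmer ones were called lower, at -0.69 and -0.78 (adjusted p = 0.025 and 0.033), and the others lay between -0.34 and 0.27. Of the proteasome subunits 35 of 42 were lower, with a median of -0.27 and 13 lower and 2 higher. These transcripts are abundant, and median centring of the arrays left the respiratory chain at -0.02 and the ribosomal proteins at -0.01 but the proteasome at -0.20. In the citric-acid cycle 16 of 20 genes were lower, 2 of them at an unadjusted p under 0.05, with a median of -0.37, but without replicate 3 of 12 h that median was at 0. The malate dehydrogenase Mdh1 was at -1.42 ± 0.42 (adjusted p = 0.084). Glycolysis and gluconeogenesis had 0 of 27 genes called and 3 higher and 2 lower at an unadjusted p under 0.05, with a median of -0.10 that was 0.14 with median centring. Pck1, the enzyme that commits oxaloacetate to gluconeogenesis, was at 0.73, 1.61 and 1.62 after 12 h and at 1.73, 1.71 and 1.66 after 24 h, a difference of 0.38 ± 0.25 (adjusted p = 0.40 by limma).

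In the cell-cycle and DNA-replication list 3 of 45 genes were called higher and 0 lower, around a median of 0.03 that was -0.20 in Cy3. They were Cdc45, a part of the replicative helicase, at 0.88 ± 0.18 (adjusted p = 0.019 by limma), Gmnn, the inhibitor of origin licensing geminin, at 0.88 ± 0.18 (adjusted p = 0.02), and Rbl1, the pocket protein p107, at 0.80 ± 0.18 (adjusted p = 0.025). Cdc45 was not well above background on 1 of the 12 h arrays. In Cy3 alone Cdc45 differed by 0.40, Gmnn by -0.19 and Rbl1 by -0.04, with Cy5 changes of -0.48, -1.07 and -0.85. Pcna, the sliding clamp, was at 0.28 ± 0.24 (adjusted p = 0.54). Of the cyclin-dependent kinase inhibitors 0 of 6 were called, with 1 higher and 1 lower at an unadjusted p under 0.05 and a median of 0.04, and Cdkn1a was at 0.06 ± 0.26. Of 27 apoptosis genes 0 were called by their brightest probe in limma, with 3 higher and 2 lower at an unadjusted p under 0.05 and a median of -0.08 that was 0.04 without replicate 3 of 12 h, and Casp6 was at -0.24 ± 0.19 (adjusted p = 0.50). A dimmer probe of Apaf1, the core of the apoptosome, was called lower at -0.97 ± 0.22 (adjusted p = 0.027), against -0.12 ± 0.23 for its brighter probe, and a probe of Bcl2l1 was called as given above.

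Of the MHC and antigen-processing genes 1 of 14 was called lower and 0 higher, with a median of -0.31. H2-Ab1, the beta chain of a class II molecule, was at -0.17, -0.46 and 0.24 after 12 h and at -1.21, -0.85 and -0.98 after 24 h. All 24 h arrays lay below all 12 h arrays, with a difference of -0.88 ± 0.20 (SE, adjusted p = 0.029 by limma) and a Cy3 change of -0.86. The invariant chain Cd74 was at -0.88 ± 0.34 (adjusted p = 0.17), with a Cy3 change of -0.13, and the partner chain H2-Aa at 0.13 (adjusted p = 0.71). Interferon and cytokine signalling had 26 genes, a median of 0.03, Jak2 called higher at 0.77 ± 0.17 and Irf8, a factor of myeloid and B cells, called lower at -0.84 ± 0.20 (adjusted p = 0.025 and 0.034 by limma). The Cy3 changes of Jak2 and Irf8 were 0.13 and -0.34. Of 5 marker genes of B and plasma cells, 2 were called lower in Cy3 and 0 higher. They were Ms4a1 and Ighm, at -0.81 and -0.80 in Cy3 (adjusted p = 0.026 and 0.017 by limma). Their Cy5 changes were -0.33 and -0.95 (adjusted p = 0.16 and 0.0094). Their log-ratio differences of -0.48 and 0.15 did not pass the test. Jchain and Cd79a were at -0.58 and -0.14 in Cy3 (adjusted p = 0.099 and 0.61). The part of B cells in the falls of H2-Ab1 and Irf8 was not tested.

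In the list of metallothioneins and antioxidant enzymes Mt1 was called higher and Gpx2, the gastrointestinal glutathione peroxidase, lower, among 17 genes with a median of -0.38. Gpx2 was at 0.91, -0.06 and 1.52 after 12 h and at -0.69, -0.44 and -0.30 after 24 h, a difference of -1.26 ± 0.32 (adjusted p = 0.046 by limma) with a Cy3 change of -0.75 (adjusted p = 0.10). Nqo1 and the peroxiredoxin Prdx6 were at -0.80 and -0.73 (adjusted p = 0.061 and 0.11). Without replicate 3 of 12 h the median of the list was -0.01. The xenobiotic-metabolism list had 0 of 16 genes called, with 3 higher and 1 lower at an unadjusted p under 0.05, and a median of 0.11. The chaperone list had 1 of 26 called, Xbp1 as described above, and a median of -0.15.

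Of 18 nutrient transporters 1 was called lower and 0 higher, around a median of -0.17 that was at 0 without replicate 3 of 12 h. Slc39a4, the importer of dietary zinc, was at 0.34, 0.12 and -0.30 after 12 h and at -0.97, -0.77 and -0.98 after 24 h. The difference was -0.96 ± 0.22 (SE, adjusted p = 0.03 by limma). The Cy3 level fell by 1.58 (adjusted p = 0.0069), with a Cy5 change of -0.62 (adjusted p = 0.043). Slc39a4 and Mt1, which both handle zinc, thus moved in opposite directions. The phosphate transporter Slc34a2 was at -0.89 (adjusted p = 0.088), with a Cy3 change of -1.37 (adjusted p = 0.014). The hexose carrier Slc2a2 was at 0.74 ± 0.20 and the amino-acid carrier Slc7a8 at 0.79 ± 0.25 (adjusted p = 0.068 and 0.10).

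Marker genes of the cell types of the intestinal wall were compared for the make-up of the samples. Absorptive enterocyte markers were bright, with a median log2 Cy3 level of 10.98 to 11.34 after 12 h and of 11.18 to 11.82 after 24 h. Their median difference was 0.25, or 0.55 with median centring, with 4 of 10 higher and 1 lower at an unadjusted p under 0.05. Of 10 such genes Cubn, the receptor for intrinsic factor and vitamin B12, was called higher in the log ratio. It was at -0.65 and -1.72 on 2 arrays of 12 h and at 0.35 and 0.39 on 2 of 24 h. The difference was 1.56 ± 0.37 (adjusted p = 0.045 by limma), called under 7 of the 21 alternatives. In Cy3 alone Cubn was not called, at 0.82 (adjusted p = 0.16 by limma), with a Cy5 change of -0.74. The disaccharidases Lct and Mgam were at 0.74 and 0.83 (adjusted p = 0.073 for each) and the aminopeptidase Anpep at -1.24 (adjusted p = 0.38). Of 12 smooth-muscle genes 0 were called, with 2 higher and 2 lower at an unadjusted p under 0.05 and a median of -0.14 that was 0.04 with median centring. Their median Cy3 level was 9.61 to 9.83 after 12 h and 9.31 to 9.60 after 24 h, and Acta2 was at -1.42 ± 0.53 (adjusted p = 0.15), Actg2 at -1.29 ± 0.39 (adjusted p = 0.084) with a called Cy3 change of -1.01 (adjusted p = 0.01), and Des at 0.26 ± 0.37.

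The remaining marker lists held few genes with a probe and none that was called in the log ratio. Goblet cells had 3 genes with a median of 0.04, of which Spdef was called higher in Cy3 by 1.37 (adjusted p = 0.013 by limma) with a Cy5 change of 1.33. The medians were, for 4 enteroendocrine genes, 0.32, for 5 genes of B and plasma cells -0.40 and for 3 of T cells -0.31. In the same order they were 0.18, -0.31 and 0.0 without replicate 3 of 12 h, and 0.01, -0.58 and -0.41 in Cy3 alone. The Paneth cell marker Mmp7 was at 0.86, 0.52 and 2.71 after 12 h and at -0.53, -0.41 and -0.19 after 24 h, lower on every 24 h array but with a difference of -1.74 that did not pass the test (adjusted p = 0.11 by limma). Fabp4 of adipose tissue was at -0.29 and Slc4a1 of erythroid cells at 0.03. Cpa1, a digestive enzyme of the exocrine pancreas, had a log2 Cy3 level of 12.92 to 13.69 after 12 h and of 12.13 to 14.70 after 24 h, so it varied more between pools of a time point than between time points (difference -0.21, adjusted p = 0.89). The part of cell make-up in the differences above was not tested.

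Among regulators outside these groups, Ccng2, an inhibitor of proliferation, was at 0.31 ± 0.15 and Rxra, the dimer partner of many nuclear receptors, at 0.03 ± 0.50 (adjusted p = 0.25 and 0.98 by limma).

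**Figure D4:**
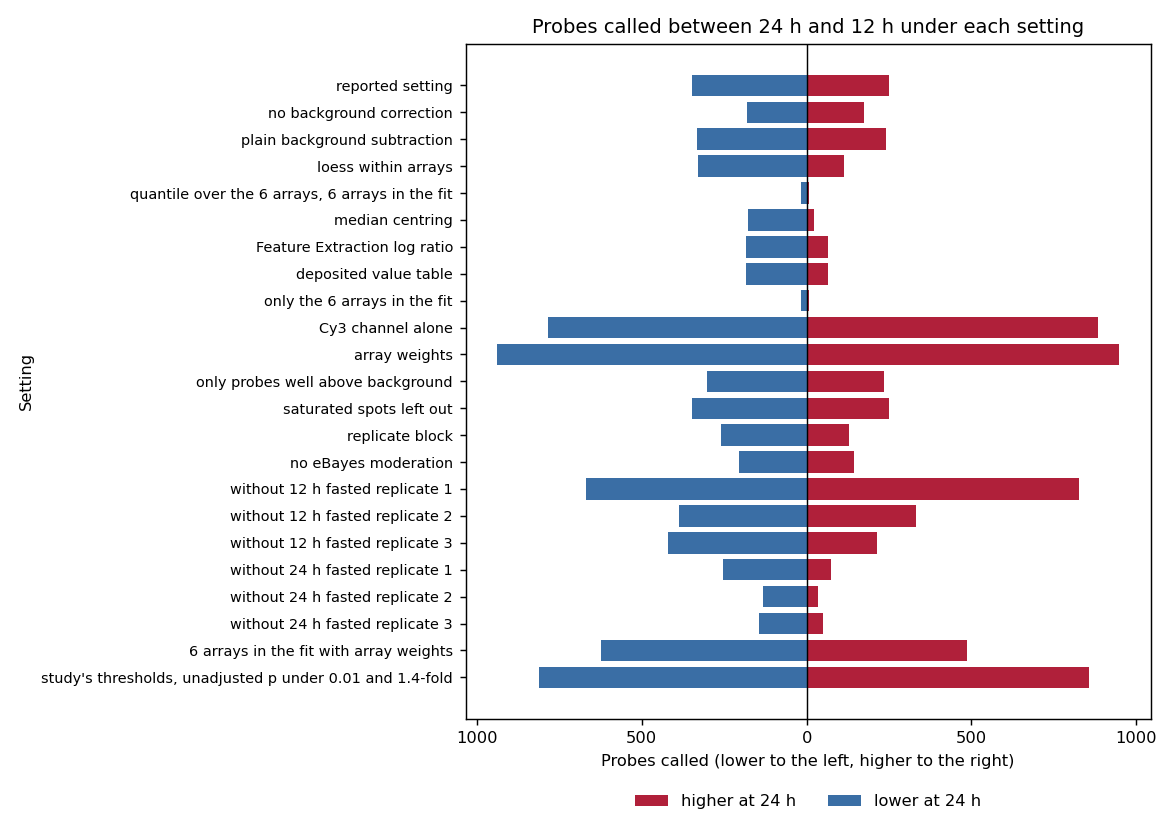
The number of probes called lower (left, blue) and higher (right, red) at 24 h than at 12 h (x axis) under each setting of the processing or with an array left out (y axis). The reported setting gives 347 and 250, the fits with only the 6 arrays and no weights give the shortest bars (16 and 6, and 18 and 6), and array weights the longest (940 and 949).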

How the data were processed

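The authors scanned each array and deposited the Feature Extraction output, which gives per spot the median foreground and background intensity of both channels, uncorrected. The authors' deposited files also hold a log10 ratio of Cy5 over Cy3, with some decimal points moved (276 cells scaled back, 96 left out), and flags; the deposited value table holds minus this log10 ratio, and both were used as alternatives only. The split-factor variance analysis of the study's methods was not repeated.

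Background was corrected with normexp (offset 50), the 24 channels of all 12 arrays were quantile normalized, control (1075 of 21446) and outlier spots were left out, and spots of a probe were averaged. log2(Cy3/Cy5), Cy3 and Cy5 were fitted with limma 3.58.1 (R 4.3.3) over all 12 arrays, with a mean per time point. The contrast of 24 h minus 12 h was moderated by eBayes and Benjamini-Hochberg adjusted over 20281 probes. The scripts were tested on simulated data. The fed and 72 h arrays entered the normalization and the estimate of spread.

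Symbols are those of GRCm38.p6, found for 9946 probes by gene number and 136 by accession, and otherwise the file's. Named genes are the 12 largest rises and falls called in the log ratio and in Cy3 the same way, the 6 largest of each called in the log ratio, with no overlap between groups and a proper symbol, every called list member, up to 4 bright uncalled members a list, and genes the study discusses; further uncalled list members and other probes were named after their values were seen. Some genes that the rule names are not reported here. The members and lists were chosen with earlier results of these data known. Python 3.11.15, pandas 2.3.3 and matplotlib 3.10.9 were used.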

Additional observations from a re-analysis of the deposited data

How the results depend on the processing

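The 597 calls in the log ratio became 355 without background correction, 202 with median centring, 249 with the software's log ratio and with the value table, 24 with only the 6 arrays fitted and 22 with these 6 also normalized alone, 347 without eBayes moderation, 1889 with array weights, 1668 at the study's thresholds (unadjusted p under 0.01 and 1.4-fold) and 1667 in Cy3 alone. With array weights in the fit of 6 arrays, chosen after seeing the data, there were 1109. Leaving out an array gave 166 to 1493 calls in the log ratio, 80 to 2816 in Cy3, 1396 to 6823 in Cy5, 9 to 343 in the log ratio and Cy3 together, and 5 to 51 genes in the lists. The Cy3 calls became 448 with 6 arrays normalized and fitted, 426 with 6 arrays fitted only and 3658 with array weights. The Cy5 calls became 64, 61 and 6076 in the same order and 1440 without background correction, and the joint calls 7, 7 and 533 and 61. Of the 20 called list genes the count was 10 with loess, 4 with 6 arrays fitted and 4 with these also normalized alone, 5 with median centring, the software's ratio and the value table, 50 in Cy3 alone, 57 with array weights, 9 without moderation, 44 with 6 weighted arrays and 61 at the study's thresholds. The cause was not tested.

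The pool numbers did not pair the arrays: same-numbered arrays deviated with correlations of 0.005, -0.026 and -0.007, and the replicate block gave 389 calls. Of 44 named called probes 40 kept their sign under all of the 21 alternatives that gave a value (none without replicate 3 of 12 h for Xbp1, Tmed4, Alad and Klf5), and the exceptions, in Cy3 alone, were Alad (0.07), Gmnn (-0.19), Klf5 (0.42) and Rbl1 (-0.04), while Ppara was called there at 1.12. No slide or scan date was in the files used, so that block was not run. The signal over background, at most 2.11 in Cy5, and 3 pools a group limit every value.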
